A study of Mus with 15 samples.

Results

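Monoubiquitinated histone H2A (H2AK119ub, H2Aub below) was compared between Maged1 conditional knockout (cKO) and wild type (WT) mice that had received cocaine, using the peak list of each library. Of 11 H2Aub peak lists in the series, 5 belong to this comparison, 3 from WT cocaine and 2 from cKO cocaine samples. Mice aged 2 to 4 months were given saline for 3 days and then cocaine (20 mg/kg, intraperitoneal) for 5 days, and thalami were dissected, with 3 to 4 thalami pooled per sample. Both genotypes carried the loxP-flanked Maged1 allele per the labels, and the cKO mice in addition carried Cre under the vGluT2 promoter, so that thalamic cells without vGluT2 activity kept Maged1. The 6 saline libraries (3 WT, 3 cKO) are given beside individual results. They also enter a gene pattern over all 11 libraries and a comparison of the genotype difference between treatments. The study describes the samples of a group as biological replicates, but the labels do not say how far they were collected or processed apart, so p-values measure the spread between these libraries.

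H2Aub is placed by Polycomb repressive complex 1 (PRC1) and is removed by deubiquitinases. It lies most densely over developmental regulators that a mature tissue keeps silent, above all over homeobox clusters such as Hox, where it forms long domains together with the H3K27 methylation of Polycomb repressive complex 2. Maged1 is a MAGE family protein that the study connects to the ubiquitin protease USP7 and to H2Aub in the thalamus, and the question of the comparison is which genes carry H2Aub differently after cocaine when Maged1 is missing.

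For each of 21887 protein-coding genes the window was the gene body plus 5 kb on each side, and all coordinates are those of mm10. A gene was counted as carrying a peak when at least 1 bp of its window lay under a peak, and its length under peaks, in bp, was measured per library. The WT cocaine lists held 21105, 26055 and 15874 peaks for replicates 1, 2 and 3, against 54653 and 17442 in cKO replicates 1 and 2. Length under peaks within gene windows was 11.7, 10.6 and 7.65 Mb in WT (mean 9.98 ± 2.08, SD, n = 3) and 14.4 and 7.84 Mb in cKO (11.1 ± 4.65, SD, n = 2). The lists give no read counts. The study states a minimum depth for all samples together, and the depth of each library is not known from the sources used here.

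The library of cKO replicate 1 stood apart from the other 4. Its median peak was 206 bp wide, against 312 to 429 bp in the others, and 7542 of its peaks had a −log10 q of at least 10, against 3 to 8 peaks in each of the others. Its highest fold enrichment over input was 31.2, against 6.12 to 7.48 in the others. Among the saline libraries, cKO replicate 1 had the same features, with 6877 such peaks against 3 to 13. Peaks of 2 kb or more held 17.6% of its covered length and 33.6 to 41.8% of that of the others. Counts and tests below are therefore also given without it, which leaves a single cKO library, and gene lengths are given library by library, so that cKO replicate 2 can be read alone.

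**Figure D1:**
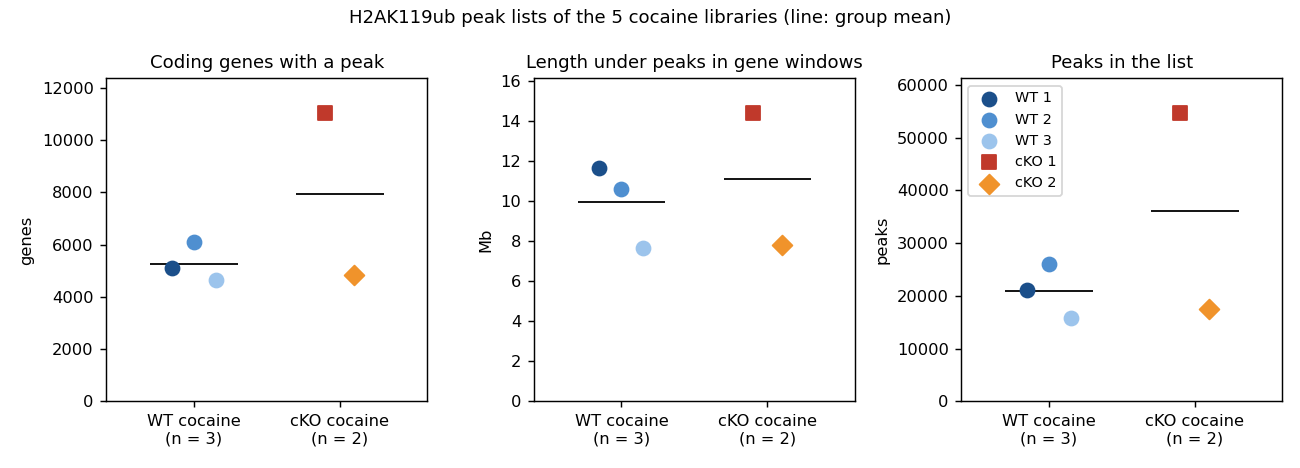
Protein-coding genes with a peak (left), length under peaks in gene windows in Mb (centre) and number of peaks (right) for each of the 5 cocaine libraries, by genotype, with a line at each group mean. cKO replicate 1 lies above every WT library in all 3 panels, at 11031 genes, and cKO replicate 2 lies within the WT range, at 4839 genes.

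Peaks were found in 5114, 6080 and 4627 coding genes of the WT libraries and in 11031 and 4839 genes of the cKO libraries. On the log2 scale the cKO mean was higher than the WT mean by 0.48 (SE 0.61) with p = 0.5 by a two-sided exact permutation test and 0.9 after adjustment over 5 measures, which is within the spread between libraries. Length within gene windows differed by 0.11 (SE 0.48, exact permutation p = 0.9). The smallest p that 2 against 3 libraries allow is 0.1. Without cKO replicate 1 the signs turned, to −0.11 for genes with a peak and −0.33 for length (exact permutation p = 0.75 for both, smallest possible 0.25). Peak number differed by 0.58 (SE 0.85), covered length by 0.14 (SE 0.52), both on the log2 scale, and the share of covered length that lay in gene windows by −1.38 percentage points (SE 2.35). These became −0.24, −0.33 and 0.14 without that library, and none of them passed the exact permutation test in either form.

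Most genes that carried H2Aub in WT mice also carried it in cKO mice. Of 3634 genes with a peak in all 3 WT cocaine libraries, 3121 (85.9%) had a peak in both cKO libraries, 484 in a single cKO library and 29 in neither. cKO replicate 2 on its own had a peak in 86.7% of these 3634 genes and cKO replicate 1 in 98.3%. Of the 4839 genes with a peak in cKO replicate 2, 93.6% also had a peak in cKO replicate 1, and 72.8 to 83.0% had a peak in any given WT library. The libraries parted over genes without a peak in WT: among 14697 genes with a peak in no WT cocaine library, cKO replicate 1 had a peak in 31.2% and cKO replicate 2 in 3.30%.

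H2Aub was present in all 3 WT libraries and absent from both cKO libraries at 29 coding genes (WT-only genes, 0.132% of the 21887 genes and 0.798% of the 3634 genes with a peak in all 3 WT libraries). Their peaks were short, with a median length per gene of 419, 356 and 313 bp in the WT libraries. Lgals3, which encodes galectin-3, had the longest minimum, with 629, 575 and 500 bp under peaks in WT replicates 1 to 3 and 0 bp in both cKO libraries. The peaks of the 3 WT libraries shared 225 bp (chr14:47373539-47373763) just outside the lower coordinate end of the gene at chr14:47373860-47386167. The longest of them, chr14:47373469-47374097 in WT replicate 1, had 3.98-fold enrichment. Rabif, which encodes a small GTPase-interacting factor, had 568, 398 and 360 bp, all outside the gene body. Pxdn, which encodes the matrix enzyme peroxidasin, had 927, 356 and 1389 bp and was the longest of the WT-only genes in WT replicate 3.

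Other WT-only genes named by the rule were Tnfsf15, a cytokine of the tumour necrosis factor family, Pax4, a transcription factor of pancreatic endocrine cells, Ercc1, a DNA repair endonuclease subunit, Atp10a, a phospholipid flippase, Amer3, Krt36, a hair keratin, Gpr137 and Pou2af1, a B cell coactivator. Their lengths ran from 226 bp (Pou2af1, WT replicate 2) to 1000 bp (Ercc1, WT replicate 1). Presence in a window does not mean presence at the same place. The peaks of the 3 WT libraries shared at least 1 bp in 5 of the 29 WT-only genes (17.2%), against 2429 of the 3634 genes with a peak in all 3 WT libraries (66.8%). Among the saline libraries, 20 of the 29 genes had a peak in at least 1 WT library and 24 in at least 1 cKO library, 23 of them in cKO saline replicate 1. Over all 21887 coding genes the same counts were 6457, 13023 and 12881. Without cKO cocaine replicate 1 the WT-only genes numbered 482 (2.20% of coding genes), and the 29 are among them by construction.

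The converse pattern, a peak in both cKO libraries and in no WT cocaine library, was found at 329 genes (cKO-only genes, 1.50% of coding genes). Srrm4, a splicing factor that directs neuronal exon inclusion, had the longest minimum. It measured 3414 bp in cKO replicate 1, 1734 bp in cKO replicate 2 and 0 bp in each of the 3 WT libraries. At chr5:116439268-116592562 cKO replicate 1 had 8 peaks and cKO replicate 2 had 4, and their longest peaks, chr5:116591621-116592833 and chr5:116591859-116592966, lay across the upper coordinate end of the gene and shared 975 bp with each other. The fold enrichments of these 2 peaks were 3.90 and 3.39, and the highest in the gene were 18.4 and 3.66. No test is given for the cKO-only genes, since they were chosen by the same values.

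Srrm4 was also without a peak in the 3 WT saline libraries and had 5149, 178 and 151 bp in the cKO saline libraries. Over the 11 libraries, 4 coding genes had a peak in all 5 cKO libraries and in none of the 6 WT libraries, and these genes were chosen after their values were seen. Beside Srrm4 they included Fancc, a Fanconi anaemia DNA repair protein, and Slc25a26, the mitochondrial carrier of S-adenosylmethionine. Slc25a26 had 292 and 128 bp in the cKO cocaine libraries and 490, 127 and 126 bp in the cKO saline libraries. Fancc had 241 and 120 bp after cocaine and 627, 862 and 366 bp after saline, so that its cocaine values were the lower ones. Srrm4, Fancc and Slc25a26 are long genes of 153, 196 and 104 kb, and no gene had the converse pattern, a peak in all 6 WT and in no cKO library.

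Marchf9, a membrane-bound ubiquitin ligase, followed Srrm4 among the cKO-only genes with 2642 and 1062 bp. Hal, which degrades histidine, had 1058 and 1234 bp, and its neighbour Lta4h, which makes leukotriene B4, had 815 and 910 bp, the windows of these neighbours overlapping. Pdcd11, a factor of ribosomal RNA processing, had 2038 and 850 bp, with 442 bp in common between the 2 libraries. The other genes named by the rule were Nudt7, a peroxisomal coenzyme A hydrolase, Mreg, Tnfsf12, which encodes the cytokine TWEAK, Lrrc74b, Ect2l, Gm38664 and Ribc2, with 650 to 1208 bp in either cKO library. Over all 329 genes the median length was 515 bp in cKO replicate 1 and 201 bp in cKO replicate 2. The peaks of the 2 libraries shared at least 1 bp in 50 of the 329 genes (15.2%), against 2821 of 4529 genes with a peak in both cKO libraries (62.3%).

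Of the 329 cKO-only genes, 298 had a peak in cKO saline replicate 1, 73 in cKO saline replicate 2 or 3, 123 in at least 1 WT saline library and 27 in no saline library. Over all coding genes, 12881 of 21887 had a peak in cKO saline replicate 1, 4222 in cKO saline replicate 2 or 3 and 6457 in at least 1 WT saline library. Without cKO cocaine replicate 1 the cKO-only genes numbered 485 (2.22% of coding genes), close to the 482 WT-only genes under the same condition.

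**Figure D2:**
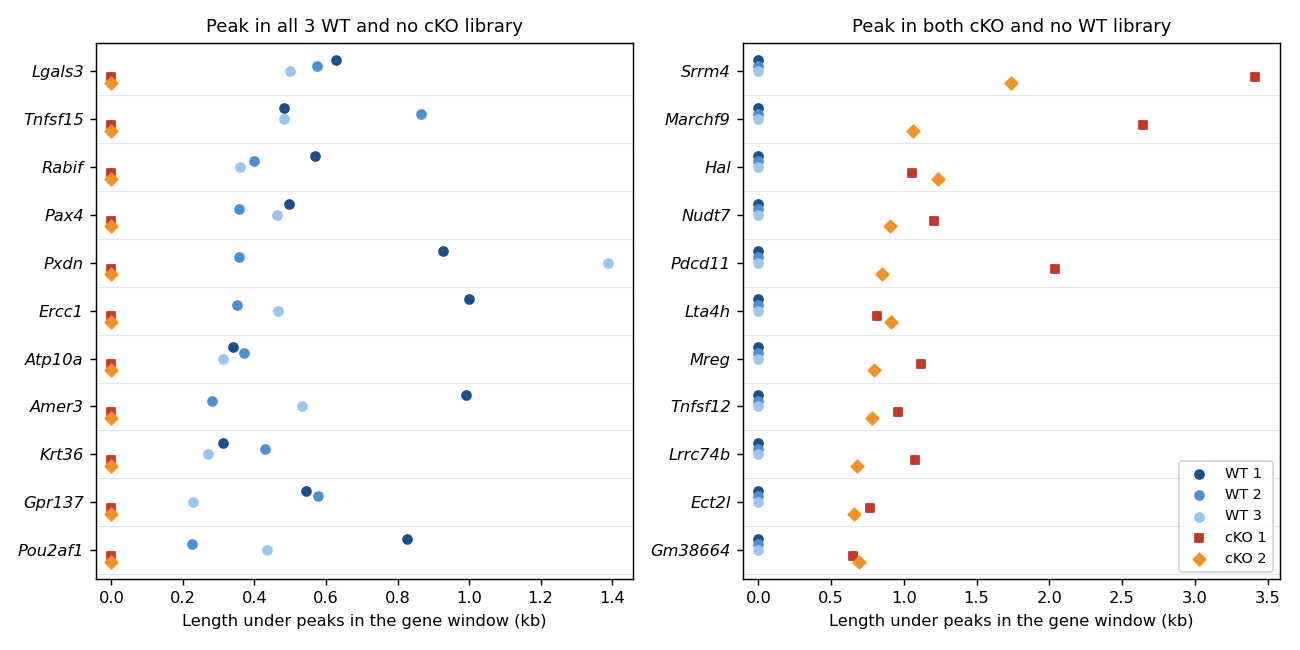
Length under peaks in kb for 11 WT-only genes (left) and 11 cKO-only genes (right) with the longest minimum, with a symbol for each of the 5 cocaine libraries. On the left both cKO libraries are at 0 for every gene, with WT values up to 1389 bp. On the right all 3 WT libraries are at 0, and cKO replicate 1 is the longer of the cKO libraries in 8 genes.

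Length under peaks was then compared without regard to presence alone. The length in both cKO libraries exceeded that in all 3 WT libraries at 787 genes (3.60% of coding genes), and the length in all 3 WT libraries exceeded that in both cKO libraries at 388 genes (1.77%), both without a test. With cKO replicate 1 left out, these counts were 1193 (5.45%) and 1791 (8.18%), so that the balance between the directions turned. Among the 3121 genes with a peak in all 5 libraries, 180 were longer in cKO (5.77%) and 295 were longer in WT (9.45%). In 572 of them (18.3%) the 2 cKO libraries lay on opposite sides of all 3 WT libraries, with cKO replicate 1 the longer in 531 and cKO replicate 2 the longer in 41. Among the 3152 genes with a peak in all 3 WT libraries and cKO replicate 2, that library was the longest at 317 (10.1%) and the shortest at 1309 (41.5%).

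**Figure D3:**
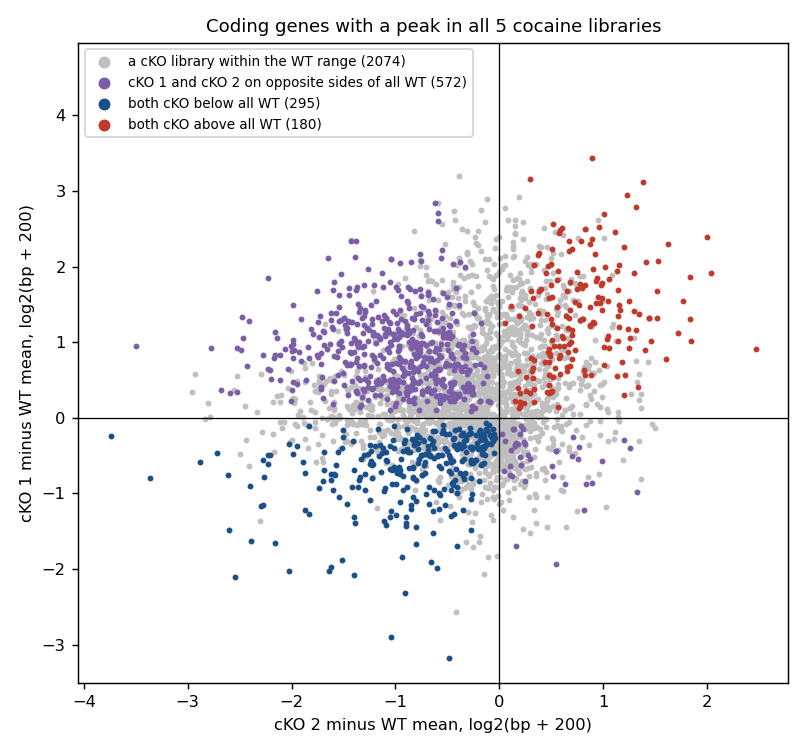
Each point is a coding gene with a peak in all 5 cocaine libraries, plotted by the difference of cKO replicate 2 (horizontal) and cKO replicate 1 (vertical) from the WT mean, both in log2(bp + 200). The upper left group, in which cKO replicate 1 is above and cKO replicate 2 below all WT libraries, holds most of the 572 genes on opposite sides and outnumbers both the 180 genes longer in cKO and the 295 genes longer in WT.

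The direction was also given by the mean WT length of the gene, which is itself 1 side of the comparison. Where the mean WT length was under 1000 bp (795 genes), 122 genes were longer in cKO and 17 in WT, and the median length was 200.04% of the WT mean in cKO replicate 1 and 86.1% in cKO replicate 2. Where it was at least 10000 bp (225 genes), 1 gene was longer in cKO and 47 in WT, and the medians were 81.1% and 95.8%. Between 1000 and 3000 bp (1354 genes) the medians were 126% and 66.7%. The gene group in which cKO replicate 1 fell furthest short was thus the broadly covered one, and there cKO replicate 2 was closest to WT.

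Among the 8 named genes longer in both cKO libraries, Disp1, which releases lipid-bearing Hedgehog from cells, was the only one with cKO replicate 2 as the longest library. Its length was 180, 416 and 112 bp in WT and 1376 and 1517 bp in cKO, a difference of 1.98 in log2(bp + 200) (SE 0.94, limma adjusted p = 0.983). Car15, a carbonic anhydrase, measured 425, 1631 and 221 bp in WT and 3894 and 2945 bp in cKO. The differences without cKO replicate 1 were 2.04 for Disp1 (limma adjusted p = 0.812) and 2.00 for Car15 (limma adjusted p = 0.577). For Disp1 and Car15 the cKO libraries were close to each other and clear of WT.

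Mvb12b (ESCRT-I subunit), Cux1 (homeobox transcription factor), Coro2b (actin-binding coronin), Shroom3 (actin regulator of epithelial shape), Kif14 (mitotic kinesin) and Map6 (microtubule stabiliser) were longest in cKO replicate 1. Cux1 had 374, 971 and 205 bp in WT, 6786 bp in cKO replicate 1 and 1002 bp in cKO replicate 2. Its difference was 2.16 in log2(bp + 200) and 0.89 when cKO replicate 1 was left out. Kif14 had 409, 470 and 133 bp in WT, 2335 bp in cKO replicate 1 and 1389 bp in cKO replicate 2, and its difference went from 1.96 to 1.63. Without that library Mvb12b had a difference of 1.39, Coro2b of 1.23, Shroom3 of 1.32 and Map6 of 1.01. Map6 changed sign with peaks of q at most 0.01 (−0.12), as did Mvb12b with windows around the gene ends alone (−0.35).

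Mycl, a MYC family transcription factor, measured 3373, 3429 and 2576 bp in the WT libraries and 851 and 537 bp in the cKO libraries, a difference of −1.91 in log2(bp + 200) (SE 0.53, limma adjusted p = 0.924). The longest peak over the gene at chr4:122995588-123002490 was 2189, 994 and 1982 bp in WT replicates 1 to 3 and 686 and 355 bp in the cKO libraries, so that WT replicate 2 was the closest to cKO in this measure. The groups did not overlap at this gene, and the difference did not pass the adjustment over all genes, nor did it without cKO replicate 1 (−2.16, limma adjusted p = 0.0716).

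Extl1, an exostosin-like glycosyltransferase, had 1483, 1253 and 2435 bp in WT and 233 and 118 bp in cKO. Ssu2 had 1761, 1692 and 1774 bp in WT, the narrowest WT spread of these genes, and 427 and 170 bp in cKO. Ttc34 had 3092, 1856 and 1240 bp in WT and 326 and 324 bp in cKO. With peaks of q at most 0.01 both changed sign, to 0.62 for Ssu2 and 0.45 for Ttc34 in log2(bp + 200). The differences without cKO replicate 1 were −2.55 for Extl1, −2.39 for Ssu2 and −2.03 for Ttc34, with limma adjusted p of 0.257, 0.266 and 0.337. In the saline libraries Extl1 had 1630 bp in cKO replicate 1 and 0 bp in replicates 2 and 3, beside 844, 186 and 126 bp in WT. The low cKO values at Extl1 after cocaine were therefore not shared by all cKO saline libraries.

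Slc6a13 (GABA transporter GAT2), Slc25a48 (mitochondrial carrier), Ntsr1 (neurotensin receptor 1) and Il10ra (interleukin 10 receptor) completed the named genes longer in WT. Il10ra had 2893, 2731 and 1592 bp in WT, 139 bp in cKO replicate 1 and 1032 bp in cKO replicate 2. Ntsr1 had 4865, 4157 and 4186 bp in WT, 3692 bp in cKO replicate 1 and 143 bp in cKO replicate 2. The differences without cKO replicate 1 were −1.04 for Il10ra, −2.60 for Slc25a48 and −3.36 for Slc6a13. At Ntsr1 the difference rested on cKO replicate 2, and at Il10ra mostly on cKO replicate 1.

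**Figure D4:**
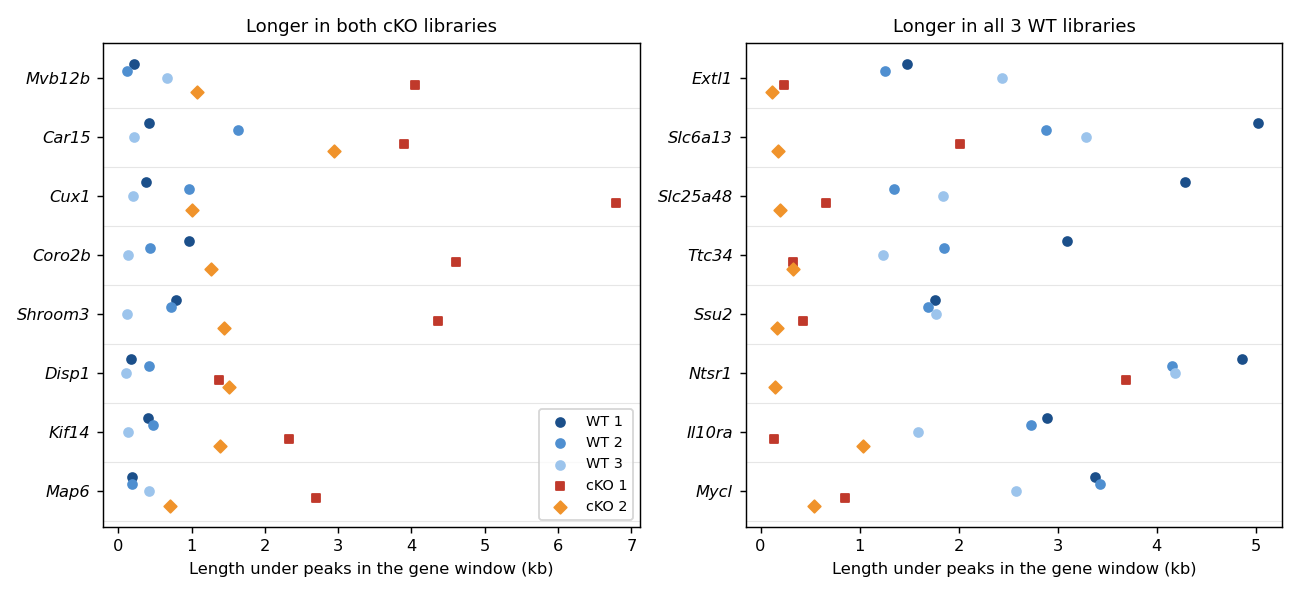
Length under peaks in kb in each of the 5 cocaine libraries for the 8 genes with the largest mean difference in each direction, among genes with a peak in all 5 libraries and no overlap between groups. On the left cKO replicate 1 is the longest library for every gene but Disp1. On the right cKO replicate 2 is the shortest library for every gene but Il10ra.

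Tested over all 7049 coding genes with a peak in at least 2 of the 5 libraries, no gene passed an adjusted p of 0.05 in either direction (limma on log2(bp + 200), 0.00% higher and 0.00% lower in cKO, lowest adjusted p = 0.924). At an unadjusted p under 0.05, 332 genes were higher in cKO (4.71%) and 48 lower (0.681%). The median difference over these genes was 0.20. A gene without a peak in one group entered this test through the other group alone. Irf8, a transcription factor of the microglial lineage with peaks in all 5 libraries that was picked after its values were seen, had 6567, 7569 and 4109 bp in WT and 2121 and 2122 bp in cKO (limma adjusted p = 0.924, and 0.107 without cKO replicate 1).

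Without cKO replicate 1, 49 of 5517 genes passed the adjusted p of 0.05, all of them lower in cKO (0.888%, 0.00% higher), and at an unadjusted p under 0.05 there were 431 lower (7.81%) and 15 higher (0.272%). In this fit the lone cKO library is assumed to vary as the WT libraries do, and the median difference over the genes was −0.33. The filter, a peak in at least 2 of the 4 libraries, let a gene without a peak in cKO replicate 2 enter through WT, but no gene without a peak in WT enter, so the absence of higher genes is not a result on its own. Of the 49 genes 12 had no peak in cKO replicate 2 and entered through WT alone. For the other 37, which had a peak in that library, differences ran from −3.74 to −0.85 in log2(bp + 200). In all of the genes called, cKO replicate 1 was longer than cKO replicate 2, which their choice by low values in cKO replicate 2 nearly fixes. cKO replicate 1 lay within the WT range in 26, above it in 17 and below it in 6. Leaving out cKO replicate 2 instead gave 8 of 6645 genes with an adjusted p under 0.05 by limma, 5 higher in cKO (0.0752%) and 3 lower (0.0451%), so that the direction of the calls differed with the cKO library left out. The genes named next were picked from the 49 after their values were seen.

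Col16a1, a collagen chain, had the lowest adjusted p. It measured 11513, 8196 and 3639 bp in the WT libraries and 746 bp in cKO replicate 2 and fell by 2.93 in log2(bp + 200) (SE 0.46, limma adjusted p = 1.01e-06), while cKO replicate 1 had 10578 bp. Ntsr1 fell by 3.74 (SE 0.63, limma adjusted p = 6.67e-06). The morphogen gene Shh had 9206, 6931 and 4297 bp in WT, 5092 bp in cKO replicate 1 and 1797 bp in cKO replicate 2.

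Of 203 genes of the neuronal lists that were tested, 4 were among the 49 (1.97%, beside 0.888% of all genes tested): Grik3, Cacna1a, Kcnq1 and Kcnc1. The share was not particular to neuronal lists. It was higher in the signalling and contrast lists, with no gene called in the developmental, Polycomb and cell identity lists. These bases are not alike, since Efna5 (signalling) and Zfp385c (contrast) had no peak in cKO replicate 2 and entered through WT alone. The other genes called in those lists, Shh and Slit3 (signalling) and Zfp469 and Zfp536 (contrast), had a peak there. At Grik3 and Cacna1a cKO replicate 1 was above all WT libraries, and at Kcnq1 and Kcnc1 it was within their range. Grik3, a kainate receptor subunit, had 9206, 6432 and 6907 bp in WT and 1709 bp in cKO replicate 2, against 13893 bp in cKO replicate 1. Cacna1a, the pore subunit of the P/Q calcium channel, had 3649, 3698 and 3955 bp in WT and 545 bp in cKO replicate 2, against 9421 bp in cKO replicate 1. Slc12a5, the neuronal chloride exporter KCC2, had 2802, 3103 and 2745 bp in WT and 309 bp in cKO replicate 2, against 3648 bp in cKO replicate 1. At Grik3, Cacna1a and Slc12a5, which is in none of the lists, the 2 cKO libraries were on opposite sides of WT, whereas cKO replicate 1 was below all WT libraries at Ntsr1 and Slc6a13. In most of the genes called without cKO replicate 1, cKO saline replicate 1 was the longest of the saline libraries. That library also had a peak in the most coding genes after saline, 12881 against 2756 to 5696.

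Gene families were described over 47 lists with 2450 genes, using the length over the joined windows of a list. In no list did the groups separate when all deposited peaks, windows with 5 kb flanks and unscaled lengths were used. The lengths in the 2 cKO libraries overlapped the WT range, or lay on opposite sides of it, in all 47. This count moved with the setting: with an equal number of peaks per library 15 lists were longer in WT, and without WT replicate 3 there were 19. With the gene body alone 2 lists were longer in WT. Gene-end windows gave 2 longer in WT and 1 in cKO, and lengths per total covered length 3 and 1. The cKO libraries lay on opposite sides of all 3 WT libraries in 11 lists. When cKO replicate 1 was left out, the remaining cKO library was below all 3 WT libraries in 17 lists, within their range in 30 and above them in none. The separate placement of each cKO library beside WT was added after the lists were seen to differ.

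The Hox clusters, which pattern the body axis and are silent in forebrain, carried H2Aub in every library, with a peak in all 11 HoxA, 10 HoxB, 9 HoxC and 9 HoxD genes. Neighbouring Hox genes share peaks, since their windows overlap. HoxA length was 111, 99.9 and 97.8 kb in WT, 75.5 kb in cKO replicate 1 and 102 kb in cKO replicate 2. HoxC length was 114, 102 and 93.7 kb in WT, 67.2 kb in cKO replicate 1 and 103 kb in cKO replicate 2. For both clusters cKO replicate 1 was below all WT libraries and cKO replicate 2 was within their range. The longest HoxA peak was 69.9, 23.2 and 18.1 kb in WT and 10.1 and 26.2 kb in cKO, so that the domain was called in more and shorter pieces in cKO replicate 1 (33 peaks against 5 to 21 in WT and 15 in cKO replicate 2).

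The same held across the 18 lists of developmental transcription factors, which together had 243 genes. cKO replicate 1 was below all 3 WT libraries in 15 lists and within their range in 3, at 65.3 to 93.9% of the WT mean (median 81.6%). cKO replicate 2 was within the WT range in all 18, at 88.3 to 102% of the WT mean (median 97.1%). Over all coding gene windows together, cKO replicate 1 stood at 144% of the WT mean and cKO replicate 2 at 78.5%. Of the 243 genes, 48 were longer in all 3 WT libraries than in both cKO libraries (19.8%, beside 1.77% of all coding genes) and 7 were longer in cKO (2.88%, beside 3.60%). Without cKO replicate 1 these were 77 (31.7%, beside 8.18%) and 17, a share above the 5.45% of all coding genes. These shares differ in their base: 9961 of all coding genes had no peak in any of the 5 libraries and could not be longer in either group, while 212 to 229 of the 243 genes had a peak, depending on the library. Counted over genes with a peak in all 5 libraries, 47 of 206 developmental genes were longer in WT (22.8%, beside 9.45%) and 5 in cKO (2.43%, beside 5.77%). Over genes with a peak in all 3 WT libraries and cKO replicate 2, that library was the shortest in 74 of 207 (35.7%) and the longest in 14 (6.76%), both below the 41.5 and 10.1% of all such genes. On this base, the share longer in WT was above that of all such genes with both cKO libraries and not with cKO replicate 2 alone. The base does not match genes by covered length, with which the calls varied. Among genes with a peak in all 5 libraries, 47 of 225 with a WT mean of at least 10000 bp were longer in WT. At 3000 to 10000 bp there were 124 of 747. Whether developmental genes differ from other genes of like covered length was not tested. The shares given for the other lists below are over all members, with the same difference in base.

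Of 16 T-box genes 7 were longer in WT and none in cKO, with or without cKO replicate 1 (43.8%, beside 1.77 and 8.18% of all coding genes). Of 36 neural bHLH genes 7 were longer in WT and 1 in cKO, against 14 and 3 without cKO replicate 1. On the base of a peak in all 3 WT libraries and cKO replicate 2, T-box genes were at 7 of 12 (58.3%) and neural bHLH genes at 13 of 29 (44.8%), beside 41.5%. For WT the bHLH counts are 19.4 and 38.9% of the list, and for cKO 2.78 and 8.33%, beside 3.60 and 5.45% of all coding genes. Tbx21, the T-bet factor of T helper cells, had 5837, 3623 and 2713 bp in WT and 2239 and 1147 bp in cKO, and the brachyury gene T had 5286, 5395 and 4482 bp in WT and 1969 and 3677 bp in cKO. Of 10 HoxB genes, whose windows overlap and share peaks, 4 were longer in WT (40%, beside 1.77%) and none in cKO, against 5 (50%, beside 8.18%) and 1 without cKO replicate 1. Hoxb3 was among the 4, with 50830, 44083 and 43300 bp in WT and 32738 and 41756 bp in cKO. Hoxd1, at the end of its cluster, had 3970, 3180 and 3024 bp in WT and 2143 and 1301 bp in cKO.

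Lhx3, a LIM homeobox factor of motor neurons and pituitary, had 12419, 10300 and 11060 bp in WT and 8730 and 6288 bp in cKO. Some members went the other way. Zic5, a zinc finger patterning factor, had 1138, 1187 and 541 bp in WT and 2570 and 2823 bp in cKO. Foxn3, a forkhead repressor, had 0, 417 and 0 bp in WT and 1352 and 840 bp in cKO. Both members were short in WT, whereas the members named above as longer in WT each carried more than 2 kb there.

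In all 4 lists of secreted signals and guidance genes cKO replicate 2 was below all 3 WT libraries, at 67.4 to 74.5% of the WT mean. With gene-end windows it was below WT in 2 of the 4 lists, and per total covered length in 3 (median 87.3%). Wnt length was 102, 100.4 and 76.3 kb in WT, 91.6 kb in cKO replicate 1 and 62.6 kb in cKO replicate 2, with a peak in all 19 Wnt genes in each library. Wnt9b had 6204, 8547 and 5865 bp in WT and 3603 and 3293 bp in cKO, and Wnt8b had 11990, 9006 and 7839 bp in WT and 6595 and 6209 bp in cKO. Of the 19 Wnt genes 5 were longer in WT and 1, Wnt5b, was longer in cKO, with 1943, 1882 and 1244 bp in WT and 5363 and 2137 bp in cKO. Leaving out cKO replicate 1 gave 11 longer in WT and 1 in cKO. The 5 and 1 are 26.3 and 5.26% of the list, beside 1.77 and 3.60% of all coding genes, and the 11 and 1 are 57.9 and 5.26%, beside 8.18 and 5.45%. All 19 had a peak in every library, and 41.5% of genes with a peak in all 3 WT libraries and cKO replicate 2 were shortest in the latter. Hedgehog, Bmp and Gdf genes measured 70.3, 68.8 and 53.5 kb in WT and 64.4 and 44.4 kb in cKO. Over the 137 genes of this class 12 were longer in WT (8.76%, beside 1.77%) and 7 in cKO (5.11%, beside 3.60%), against 46 (33.6%, beside 8.18%) and 9 (6.57%, beside 5.45%) when cKO replicate 1 was left out.

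Among Fgf genes, Fgf8 had 9430, 7872 and 8818 bp in WT and 7392 and 4913 bp in cKO, and Fgf15 had 3946, 4504 and 3392 bp in WT and 1279 and 3216 bp in cKO. Axon guidance genes were the exception in this class. They measured 161, 145 and 93.4 kb in WT, 216 kb in cKO replicate 1 and 90.1 kb in cKO replicate 2, and 66 of 71 genes had a peak in cKO replicate 1 against 42 to 47 in WT and 40 in cKO replicate 2. Sema3a, a repulsive guidance ligand, had 841, 265 and 0 bp in WT and 2215 and 1496 bp in cKO. Robo1, the receptor of Slit proteins, was a cKO-only gene with 3139 and 159 bp. None of the 71 axon guidance genes was longer in WT and 4 were longer in cKO, against 19 and 5 without cKO replicate 1. For the cKO direction these are 5.63 and 7.04% of the list, beside 3.60 and 5.45% of all coding genes, and for the WT direction 26.8% without cKO replicate 1, beside 8.18%. Over genes with a peak in all 3 WT libraries and cKO replicate 2 the last share was 14 of 33 (42.4%, beside 41.5%), which is no excess.

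In neuronal lists the 2 cKO libraries stood apart from each other. Of 12 lists of receptors, channels, transmitter genes and adhesion molecules, cKO replicate 1 was above all WT libraries in 10 and cKO replicate 2 below all of them in 9, with both true in 7. These placements changed with the setting. With an equal number of peaks per library cKO replicate 1 was below all WT libraries in 10 of the 12 lists (median 49.1% of the WT mean), and per total covered length it was below in 6 and above in 5. For cKO replicate 2 the number of neuronal lists below WT was 9 with equal peak numbers, but per total covered length it was 4, with 2 above. In the developmental lists cKO replicate 1 was below all WT libraries in all 18 under both settings. Equal numbers were reached by keeping the peaks with the lowest q, which dropped most of the 54653 peaks of cKO replicate 1. Scaling divided its lengths by the largest total, 21.2 Mb. Both settings lower cKO replicate 1 by construction, so its places below WT under them are no support for a difference. In the developmental lists cKO replicate 2 was within the WT range in all 18 with equal peak numbers. Per total covered length it was above all WT libraries in 6 (median 121%). Over the joined lists the length was 511, 491 and 328 kb in WT, 668 kb in cKO replicate 1 and 292 kb in cKO replicate 2. WT replicate 3, the shortest WT list, stood at 74.0% of the WT mean here and cKO replicate 2 at 66.0%, with cKO replicate 1 at 151%. The lists taken as contrast, of ribosomal protein, olfactory receptor and zinc finger genes, were further apart, at 207% in cKO replicate 1 and 46.1% in cKO replicate 2. In the developmental lists WT replicate 3 stood at 90.7% and cKO replicate 2 at 95.4%.

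Glutamate receptor genes had the lowest value of cKO replicate 2, at 36.0% of the WT mean, beside 232% in cKO replicate 1. Their length was 33.2, 34.5 and 21.2 kb in WT, 68.8 kb in cKO replicate 1 and 10.7 kb in cKO replicate 2, and 23 of 26 genes had a peak in cKO replicate 1 against 12 to 16 in WT and 10 in cKO replicate 2. Grm6, a metabotropic glutamate receptor, was the 1 member longer in WT, with 3117, 3579 and 1852 bp in WT and 1798 and 1183 bp in cKO, and without cKO replicate 1 there were 8 longer in WT and none in cKO (3.85 and 30.8% of the list for WT, beside 1.77 and 8.18% of all coding genes). Potassium channel genes measured 118, 125 and 77.5 kb in WT, 149 kb in cKO replicate 1 and 64.6 kb in cKO replicate 2. Of their 94 genes 9 were longer in WT and 4 in cKO, and without cKO replicate 1 there were 28 and 6. As shares these are 9.57 and 4.26%, beside 1.77 and 3.60% of all coding genes, and 29.8 and 6.38%, beside 8.18 and 5.45%. Among genes with a peak in all 3 WT libraries and cKO replicate 2, the shares longer in WT were 6 of 10 glutamate receptor genes and 20 of 35 potassium channel genes (57.1%, beside 41.5%).

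GABA and glycine receptor genes had little H2Aub, at 1393, 2133 and 1396 bp in WT, 13035 bp in cKO replicate 1 and 1090 bp in cKO replicate 2. Gabra5 was longer in both cKO libraries than in WT, with 0, 321 and 295 bp in WT and 900 and 680 bp in cKO. Cell adhesion genes had peaks in 19 to 22 of 57 members in WT, 50 in cKO replicate 1 and 18 in cKO replicate 2. Cntnap2, a neurexin family adhesion molecule, was a cKO-only gene with 2131 and 463 bp, and Flrt2 had 800, 160 and 0 bp in WT and 1034 and 956 bp in cKO. Of the 57 adhesion genes 4 were longer in cKO (7.02%, beside 3.60%) and none in WT, against 5 (8.77%, beside 5.45%) and 8 (14.0%, beside 8.18%) without cKO replicate 1. On the base of a peak in all 3 WT libraries and cKO replicate 2, the last was 6 of 12, beside 41.5%. Cacna1d, a calcium channel subunit, had 337, 0 and 0 bp in WT and 1681 and 759 bp in cKO.

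Monoamine genes bear on cocaine, which blocks the dopamine, serotonin and noradrenaline transporters. Their list measured 25.2, 24.9 and 16.1 kb in WT, 27.3 kb in cKO replicate 1 and 12.7 kb in cKO replicate 2. The serotonin transporter gene Slc6a4 had 5361, 3659 and 3571 bp in WT and 2488 and 1438 bp in cKO. The dopamine receptor gene Drd1 had 1237, 1167 and 882 bp in WT and 458 and 396 bp in cKO. Both were longer in WT without overlap, whereas Slc18a2, the vesicular monoamine transporter, was longer in cKO, with 3419, 3500 and 2130 bp in WT and 3917 and 3777 bp in cKO, and Ddc, which makes dopamine and serotonin from their precursors, was a cKO-only gene with 285 and 345 bp.

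Of the opioid and peptide genes, Oprd1, the delta opioid receptor, was longer in cKO, with 1142, 1997 and 1818 bp in WT and 2485 and 3009 bp in cKO. C1ql1, a secreted synaptic organiser, was longer in WT, with 7087, 6448 and 7203 bp in WT and 4827 and 4261 bp in cKO. Of 23 opioid and peptide genes 1 was longer in cKO and none in WT, against 1 and 6 without cKO replicate 1. The 1 in cKO is 4.35% of the list, near the 3.60 and 5.45% of all coding genes, and the 6 in WT are 26.1%, beside 8.18%. Among genes with a peak in all 3 WT libraries and cKO replicate 2 the WT share was 5 of 12 (41.7%, beside 41.5%), and for immediate early genes it was 7 of 16 (43.8%), which are background shares. Of 8 C1ql and Cbln genes 1 was longer in WT (12.5%, beside 1.77%), against 4 (50.0%, beside 8.18%) with that library left out. Of the 21 immediate early genes 1 was longer in WT (4.76%, beside 1.77%) and none in cKO, against 7 and 1 without cKO replicate 1 (33.3%, beside 8.18%, and 4.76%, beside 5.45%). Of the 17 monoamine genes 2 were longer in each direction (11.8%, beside 1.77% for WT and 3.60% for cKO). Without cKO replicate 1 there were 7 in WT and 2 in cKO (41.2 and 11.8%, beside 8.18 and 5.45%). On the base of a peak in all 3 WT libraries and cKO replicate 2 the WT count was 5 of 9 (55.6%, beside 41.5%). Over all 355 neuronal genes 16 were longer in WT (4.51%, beside 1.77%) and 20 in cKO (5.63%, beside 3.60%), against 85 (23.9%, beside 8.18%) and 26 (7.32%, beside 5.45%) without cKO replicate 1. Over genes with a peak in all 5 libraries, 14 of 134 neuronal genes were longer in WT (10.4%, beside 9.45%) and 5 in cKO (3.73%, beside 5.77%), and over those with a peak in all 3 WT libraries and cKO replicate 2, 66 of 134 were shortest in that library (49.3%, beside 41.5%). Shares near those of all such genes are no result about the lists. None of the genes in these paragraphs passed the limma test over all genes with all 5 libraries.

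**Figure D5:**
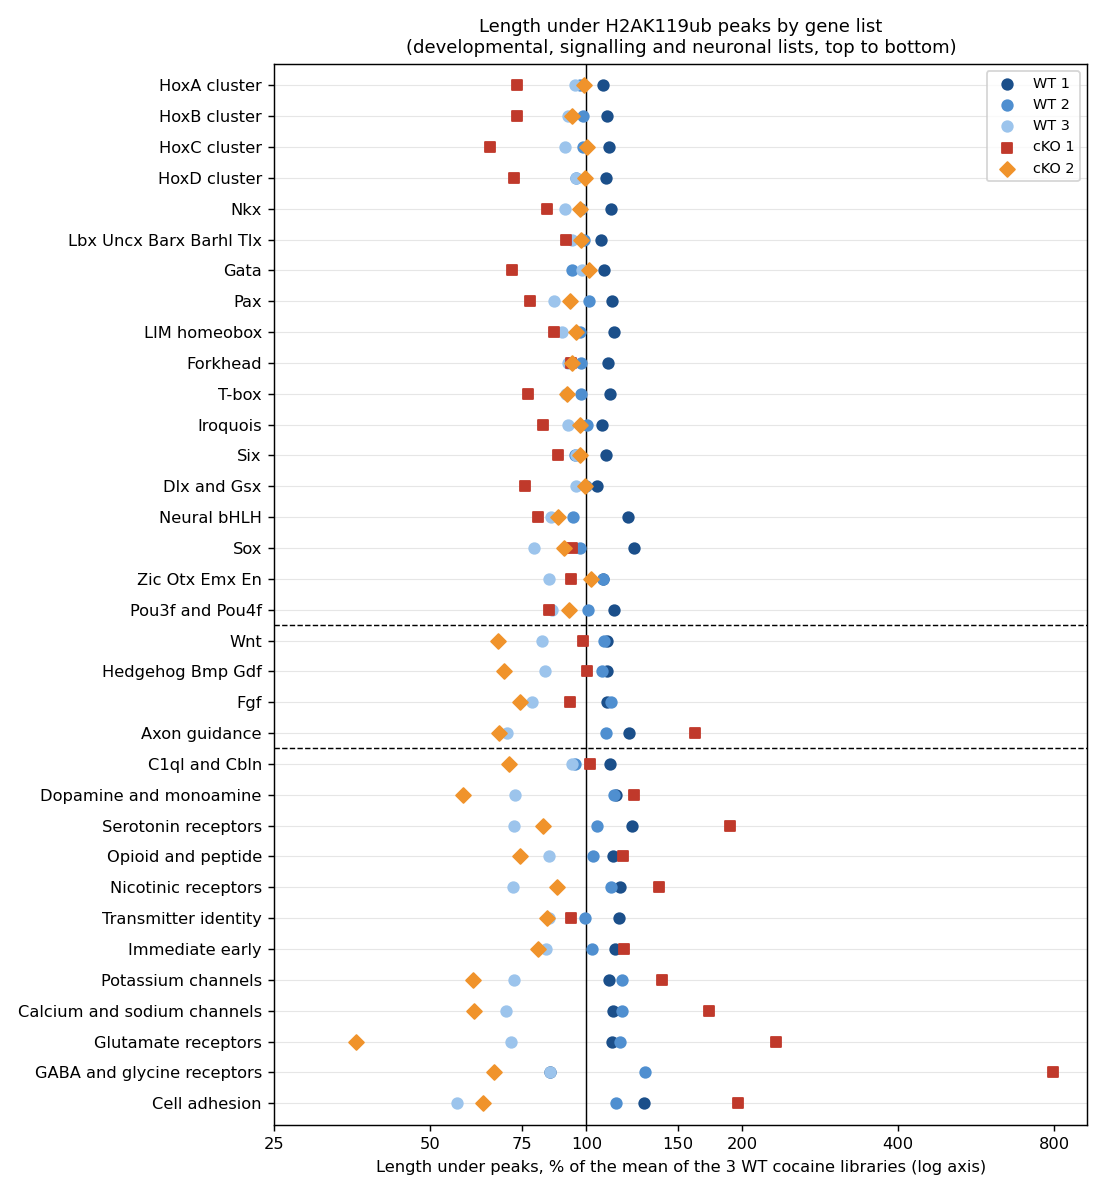
Length under peaks in each of the 5 cocaine libraries as a percentage of the WT mean (logarithmic axis) for the 18 developmental, 4 signalling and 12 neuronal lists, separated by dashed lines. cKO replicate 1 (squares) is left of WT in most developmental lists and right of WT in most neuronal lists, while cKO replicate 2 (diamonds), with lengths not scaled to total covered length, is within WT in every developmental list and at or left of the lowest WT library in most others. With an equal number of peaks per library, which drops most peaks of cKO replicate 1, that library was below WT in 10 of the 12 neuronal lists.

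Of the genes the study is about, none separated the groups when both cKO libraries were used. Maged1 had no peak in its window (chrX:94535474-94542025) in any of the 11 libraries, so the peak lists show nothing of the deletion and cannot check the genotype labels. Usp7 had 327 bp in WT replicate 3 and 303 bp in cKO replicate 1 and no peak in the other 3 cocaine libraries. Slc17a6, which encodes vGluT2, had 1867, 951 and 1391 bp in WT and 1229 and 2045 bp in cKO, so that the groups overlapped, while cKO replicate 2 alone was longer than all 3 WT libraries. Hopx had 2520, 1981 and 1134 bp in WT and 897 and 1678 bp in cKO, Scml4 had 2652, 1713 and 2216 bp in WT and 2272 and 2492 bp in cKO, and C1ql3, a synaptic organiser of the C1q family, had 0, 558 and 1134 bp in WT and 1361 and 796 bp in cKO. In Hopx, Scml4 and C1ql3 the groups overlapped with and without cKO replicate 1.

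Of 34 PRC1 genes, which place the mark, 3 were longer in WT and none in cKO, against 7 and none without cKO replicate 1. The shares in WT are 8.82%, beside 1.77% of all coding genes, and 20.6%, beside 8.18%. Over genes with a peak in all 5 libraries they were 2 of 13 (15.4%, beside 9.45%), and over those with a peak in all 3 WT libraries and cKO replicate 2 they were 6 of 13 (46.2%, beside 41.5%), near the share of all such genes. Bmi1, a core PRC1 subunit, had 5216, 5574 and 3828 bp in WT and 2885 and 3382 bp in cKO, Rybp had 1111, 615 and 949 bp in WT and 202 and 303 bp in cKO, and Phc2 had 236 to 756 bp in WT and 142 and 0 bp in cKO. The 1 of 12 PRC2 genes that separated was Jarid2, which was longer in cKO (8.33% of the list, beside 3.60%), with 1530, 115 and 944 bp in WT and 3006 and 1901 bp in cKO. With cKO replicate 1 left out 1 PRC2 gene was longer in WT and 1 in cKO (8.33% each, beside 8.18 and 5.45%). No H2A deubiquitinase gene separated. Without cKO replicate 1 the 1 of 11 that did (9.09%, beside 5.45% of all coding genes) was Usp22, with 432, 0 and 378 bp in WT and 476 bp in cKO replicate 2, beside 394 bp in cKO replicate 1. Of 21 MAGE genes none had a peak in WT or in cKO replicate 2, and 2 had a peak in cKO replicate 1. Cdkn2a, a classic Polycomb target that encodes p16, had 22827, 16945 and 15695 bp in WT, 10495 bp in cKO replicate 1 and 18392 bp in cKO replicate 2.

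Marker genes of thalamic cell types were examined in the same way, although a peak list holds no expression and cannot tell fewer cells of a type from less H2Aub per cell. Of 13 thalamic identity genes, each cocaine library had a peak in 11 or 12, and 10 had a peak in all 5. Rora, a nuclear receptor of thalamic relay neurons, had 1362, 0 and 200 bp in WT, 7771 bp in cKO replicate 1 and 1671 bp in cKO replicate 2, and Necab1 had 967, 1047 and 345 bp in WT and 334 and 196 bp in cKO. Lhx2 had 25473, 21674 and 20850 bp in WT and 16896 and 19506 bp in cKO. The lists of oligodendrocyte and astrocyte markers each had 1 gene longer in WT, Olig2 with 12539, 11968 and 10724 bp in WT and 10004 and 9041 bp in cKO, and Gjb6 with 2223, 1234 and 1438 bp in WT and 802 and 349 bp in cKO. Of the microglial markers, the neighbours C1qa and C1qc, which share peaks, were longer in WT and Spi1 in cKO, and no endothelial marker separated. With cKO replicate 1 left out, 3 thalamic identity, 4 oligodendrocyte, 2 astrocyte and 2 microglial markers were longer in WT. In cKO 2 thalamic identity markers and 1 microglial marker were longer. Over the 57 marker genes 6 were longer in WT and 2 in cKO, against 11 and 3 without cKO replicate 1. In the cKO direction these are 3.51 and 5.26%, close to the 3.60 and 5.45% of all coding genes, and in the WT direction 10.5 and 19.3%, beside 1.77 and 8.18%. Over genes with a peak in all 3 WT libraries and cKO replicate 2 the WT share was 10 of 29 (34.5%), below the 41.5% of all such genes, so that the excess without cKO replicate 1 did not hold on this base.

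Among families outside these lists, symbols were grouped by their letters before the first digit, which gave 281 roots of at least 10 coding genes. WT-only genes, 0.132% of all coding genes, were found in 13 roots, in none of them more than 2. The highest shares were those of Tnfsf cytokines, 1 of 11, and 2 of 24 genes of the root S, S100a5 and S100a6. cKO-only genes, 1.50% of all coding genes, were found in 81 roots. The highest shares were 2 of 15 axonemal dynein heavy chains (Dnah9, Dnah10), 3 of 24 Fbxw genes (Fbxw4, Fbxw7, Fbxw10), 3 of 28 Dnajc cochaperones, 2 of 19 Ifi genes and 2 of 19 Adamts proteases. For Fbxw, which encode ubiquitin ligase adaptors, WT libraries had a peak in 0, 1 and 0 of 24 genes, cKO replicate 1 in 7 and cKO replicate 2 in 4. These roots were named for their shares, and leaving out cKO replicate 1 gave 2 Dnah, 4 Fbxw, 3 Dnajc, 3 Ifi and 3 Adamts cKO-only genes, and 1 Tnfsf and 2 S WT-only genes. The highest shares were then those of other roots, with cKO-only genes (2.22% of all coding genes) at 3 of 10 Dhrs and 2 of 10 Gbp genes, and WT-only genes (2.20%) at 3 of 12 Muc and 3 of 14 Kcnk genes. Housekeeping ribosomal protein genes had a peak in 2, 7 and 3 of 80 genes in WT and in 14 and 2 in cKO, and olfactory receptor genes in 5, 12 and 7 of 1106 in WT and in 53 and 9 in cKO, with cKO replicate 1 the highest in both.

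The genotype difference after cocaine was set against the difference after saline by permuting genotype within treatment over all 200 arrangements. For coding genes with a peak, cKO was above WT by 0.48 on the log2 scale after cocaine and by 0.28 after saline, a difference of 0.20 (exact permutation p = 0.81, smallest possible 0.005). For length within gene windows the difference was −0.09 (0.11 after cocaine, 0.20 after saline, exact permutation p = 0.925). Without cKO cocaine replicate 1 these were −0.39 and −0.53. Without cKO saline replicate 1, which had the same features, they were 0.89 (exact permutation p = 0.16) and 0.58 (exact permutation p = 0.33). Leaving out both gave 0.30 and 0.14, so the sign turned with the libraries left out. No difference between the treatments in the effect of the genotype was detectable with these libraries.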

How the data were processed

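H2Aub was profiled by ChIPmentation, and input chromatin (4 libraries) was not analysed here. Per the labels and the study's methods, the authors mapped reads to mm10 with Bowtie2 (2.3.4.1) and called broad peaks per library with MACS2 (2.1.1.20160309.3) against input. The deposited lists give peak positions, a fold enrichment that is a linear ratio over input, and −log10 q. Peak positions were used for all lengths, and the highest deposited q was 0.0997. The lists hold no counts, and the study states a minimum depth for all samples together, so the depth of each library is not known here.

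Genes came from a RefSeq table of GRCm38.p6, which has mm10 coordinates and no strand. No sequence was given with it. Library totals were set against each other with two-sided exact permutation tests and Benjamini-Hochberg adjustment over 5 measures. Gene lengths were compared across all genes with a peak in at least 2 libraries by limma (3.58.1 in R 4.3.3) on log2(bp + 200). The fit was tried on simulated data with a common spread and no outlying library, which does not measure the power in these data. Families were counted without a test. The genes named were 12 WT-only and 12 cKO-only genes by longest minimum length, 8 genes per direction by mean difference, up to 4 separated members per list and the study's genes. Members and lists were chosen with earlier results of these data known. Alternatives were q limits, equal peak numbers (those with the lowest q), other windows, all genes, 200 bp overlap, scaled lengths, pseudocounts, filters, weights and leaving out each library. Intervals were handled in Python 3.11.15 with NumPy 2.4.6 and pandas 2.3.3. A few genes that the rule names are not reported here.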

Additional observations from a re-analysis of the deposited data

How the results depend on the processing

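With peaks of q at most 0.01 there were 152 cKO-only genes, 281 genes longer in cKO without overlap and 211 genes longer in WT without overlap, and 3 lists were longer in WT and 1 in cKO, while at q of at most 0.05 1 list was longer in WT. With an equal number of peaks per library (15874), covered length differed by −0.58 and gene length by −0.62 (log2, exact permutation p = 0.1 for the latter, the smallest possible), with 192 WT-only and 190 cKO-only genes, 347 genes longer in cKO, 1169 longer in WT and 15 lists longer in WT. With the gene body alone the share in gene windows differed by 0.36 percentage points and 2 lists were longer in WT. With gene-end windows there were 63 WT-only genes and 518 genes longer in cKO, and 2 lists were longer in WT and 1 in cKO. Over all genes, noncoding included, the counts were 73 WT-only, 581 cKO-only, 1297 longer in cKO and 708 longer in WT. Scaled to total covered length, 588 genes were longer in WT, and 3 lists were longer in WT and 1 in cKO. Without the filter limma called 1 gene.

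With the replicate block, covered length differed by −0.070, gene length by −0.067 and the share by 0.13, and limma called 0 genes (104 at an unadjusted p under 0.05). The numbers were not shown to pair the libraries: same-numbered libraries had correlations of −0.14 and −0.16 between their deviations.

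Leaving out 1 library at a time gave peak number −0.24 to 1.41, covered length −0.33 to 0.61, genes with a peak −0.11 to 1.07, gene length −0.33 to 0.55 (log2) and share −2.96 to 0.14 points. It gave 49 to 482 WT-only genes, 396 to 4580 cKO-only genes, 898 to 8053 genes longer in cKO, 520 to 1791 longer in WT and 0 to 49 limma calls (49 lower in cKO without cKO replicate 1, 5 higher and 3 lower without cKO replicate 2). The number of lists longer in WT ran from 0 to 19, the highest without WT replicate 3, and of those longer in cKO from 0 to 17, the highest without cKO replicate 2. The treatment difference ran from −0.39 to 0.89 for genes and from −0.53 to 0.58 for length, and without both cKO libraries numbered 1 it was 0.14 for length. At q of at most 0.01, Map6 (−0.12), Ttc34 (0.45) and Ssu2 (0.62) changed sign, as did Mvb12b (−0.35) with gene-end windows. Counting small differences too, 4 of 46 named genes changed sign at q of at most 0.01, 4 with equal peak numbers 3 with gene-end windows and 2 at q of at most 0.05, the others being study genes. The cause of these changes was not tested. Setting each cKO library beside WT alone and counting lists over members with a peak in the libraries compared were chosen after seeing the data.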
